A study of Rattus norvegicus with 12 samples.

Results

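The genes described here encode the subunits of cytochrome c oxidase (complex IV) and of the mitochondrial ATP synthase. They were taken from the gene names on the array by their spelling: names that begin with Cox and a digit from 4 to 8 followed by a letter, names that begin with Atp5, and Ndufa4, Atpif1 and Usmg5. Of 36174 gene names on the array, 37 met this rule, through 55 probes. By role, 17 were complex IV subunits or isoforms and 17 belonged to the ATP synthase. The other 3 names were counted apart: Cox6c-ps1, a pseudogene of Cox6c, and Atp5s and Atp5sl, which carry an Atp5 name but are listed today as Dmac2l and Dmac2. Names are printed as the array gives them, and current symbols were found for all 37 in the RefSeq gene table, 35 by accession, 1 by symbol and 1 by synonym. Cox6b1, Cox7a1 and the subunits encoded in mitochondrial DNA were not analysed here.

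Complex IV is the last enzyme of the respiratory chain. It takes electrons from cytochrome c, reduces oxygen to water and pumps protons out of the matrix, and the ATP synthase lets those protons back in through a turning ring of c subunits and uses the movement to make ATP in its F1 head. Several nuclear complex IV subunits exist as a ubiquitous form and a tissue form, such as COX6A1 and the heart and skeletal muscle form COX6A2, or COX4I1 and COX4I2, which is found mostly in lung and is induced by low oxygen in several cell types. VDAC1 lies in the outer membrane, where it passes ATP, ADP and respiratory substrates to and from the cytosol.

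The samples were 12 cultures of N27, an immortalised rat dopaminergic neural line: 7 in which VDAC1 had been removed with CRISPR (KO 1 to KO 7) and 5 wild type (WT 3, WT 5, WT 6, WT 7 and WT 8). No other allele or agent is named in the labels, and the series sets mitochondrial bioenergetics and transcripts of the 2 genotypes side by side. The sources used here do not give the number of clones behind the knockout cultures, the site of the edit or whether cultures were grown separately, so p-values measure the spread between these arrays, which may be technical. Each culture was hybridised to a 1-colour Agilent array with 58717 spots that are not controls. Values are log2 of the processed spot signal minus the 75th percentile of that array, called log2 signal below. A value of 0 is therefore as bright as the array's 75th percentile, which lay between 120.1 and 691.8 units, and the levels of different probes cannot be set against each other.

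The targeted gene was dimmer in every KO array than in every WT array. Vdac1 log2 signal ran from 1.20 to 2.68 with a median of 2.26 in the KO arrays, and was 3.61, 3.14, 3.07, 3.16 and 3.07 in WT 3, 5, 6, 7 and 8. Within the knockout it was 2.54, 2.45, 2.68 and 2.26 in KO 1 to KO 4. In KO 5 to KO 7 it was lower, at 1.21, 1.53 and 1.20. The difference, KO minus WT, was -1.23 ± 0.28 (SE) with an adjusted p of 0.0560 in limma, where p-values were adjusted over all 14746 features tested and 0.05 is the threshold for a call. It was negative in all 30 alternatives and passed in 7 of them, among them the slide as a block (-1.38, adjusted p 0.0224), the scan day as a block (-1.26, 0.0428), the number range as a block (-1.58, 0.000526) and the arrays numbered 5 to 8 alone (-1.8, 0.00118). Vdac2 and Vdac3, the other channel isoforms, differed by -0.04 and 0.21. Of 10 dopaminergic markers, Th and Aldh1a1 were well above background on 12 arrays, Slc18a2 on 9, Nr4a2 on 5, Lmx1b on 4, Pitx3 on 1 and Slc6a3, Ddc, En1 and Foxa2 on 0. Nr4a2, a transcription factor of dopaminergic neurons, had just the 5 arrays above background that testing required. Its log2 signal averaged -5.11 ± 0.93 (SD, n = 7) in KO and -3.92 ± 0.12 (SD, n = 5) in WT. The difference was -1.19 ± 0.38 (SE), at an unadjusted p of 0.00727 and an adjusted p of 0.143 in limma. On the other arrays Nr4a2 was not above background, so the size of this difference is uncertain. The other dopaminergic markers tested, Th, Aldh1a1 and Slc18a2, differed by 0.17, 0.63 and -0.08. Their adjusted p were 0.703, 0.513 and 0.939 in limma. Of 6 neuronal genes, Tubb3 was above background on 7 arrays and differed by -0.51, Rbfox3 and Syt1 were so on 1, and Map2, Snap25 and Stmn2 on 0. Log2 of the summed signal of the dopaminergic list lay between -0.54 and 0.42 in the KO arrays and between -0.52 and 0.35 in the WT arrays. Sample numbers fall into a range from 1 to 4 (KO 1 to KO 4 and WT 3) and a range from 5 to 8. Among the knockouts, the values of KO 1 to KO 4 did not overlap those of KO 5 to KO 7 for 37.1% of all features. This share says nothing of WT 3. Of 11 members described below that split this way, WT 3 lay on the side of KO 1 to KO 4 in 6. KO 1 to KO 3 lay on slide 2, KO 4 and KO 5 on slide 3, and KO 6 and KO 7 on slide 1. Number range and slide are thus largely mixed within the knockout. WT 3 is the only wild-type array with a low number, so results that rest on it are given with and without it.

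Of the 37 members, 34 were well above background on at least 5 arrays, and each of these 34 was so on all 12. The other 3, Cox7b2, Cox8b and Cox8c, which are tissue forms of COX7B and COX8, were above background on no array. No member was called. Of the 14 complex IV members tested, 0 were higher and 0 lower at an adjusted p under 0.05, and of the 17 ATP synthase members likewise 0 and 0, where 0.698% of all features were called higher and 0.393% lower in the same limma fit. At an unadjusted p under 0.05, 4 complex IV members were higher and 1 lower, and 2 ATP synthase members were higher and 0 lower, beside 9.35% and 6.24% of all features. The number of features called depends on the settings. It was 161 in this fit, both directions together, 0 with array median scaling or with no filter on dim probes, 25 with normexp background correction and 750 with the number range blocked. It moved by more than 1.5 times when any array but KO 5 was left out, from 14 (without WT 5 or WT 8) to 650 (without WT 3). The KO and WT values overlapped in every member tested (0 of 34 without overlap), where 2.73% of all features showed no overlap. Figures for single genes below are therefore measured differences that did not pass the threshold, unless a passing fit is named.

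**Figure D1:**
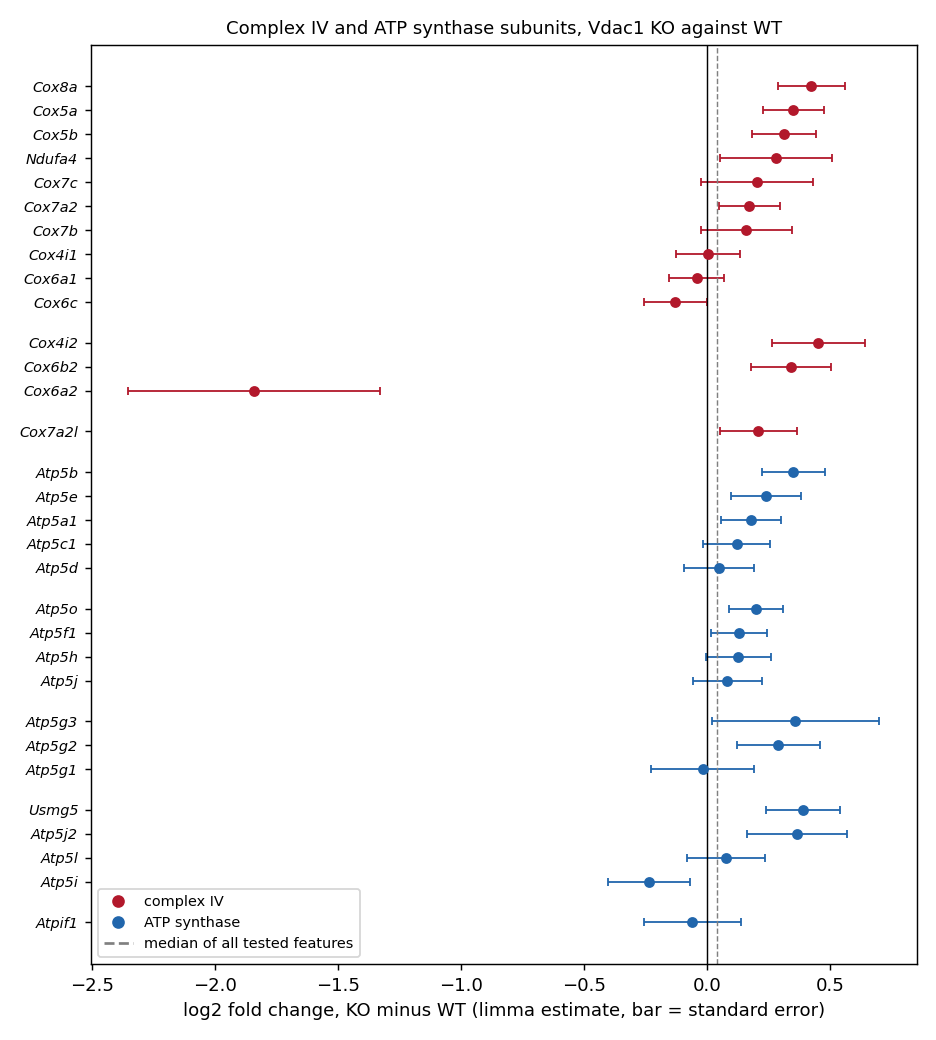
Log2 fold change (KO minus WT, x axis) of the 31 complex IV and ATP synthase members past the filter, in blocks by role and coloured by complex; points are limma estimates, bars standard errors, and the dashed line is the median of all tested features, 0.04. Cox6a2 lies at -1.84, while all other members lie between -0.23 and 0.45.

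The isoform pairs can be told apart on the array because each has its own probe sequence, shown here as 30-base stretches of the probe used. Capitals mark AATAAA, the letters of the polyadenylation signal, which 3 of the 4 stretches hold.
Cox6a1: accacgaaagcccattggatgctcagctca
Cox6a2: agttccaagcgcAATAAAggtgtgaaactt
Cox4i1: atggtccatgttAATAAAtgaccagtttac
Cox4i2: cccttctgctccAATAAAagcagcctgcat
The probes start at base 429 of the Cox6a1 transcript, 421 of Cox6a2, 636 of Cox4i1 and 644 of Cox4i2. By the coordinates in the files, which are of build rn4, the Cox6a1 probe lies at chr12:42533025-42533084, that of Cox4i1 at chr19:51030141-51030200 and that of Cox4i2 at chr3:143114177-143114236, all on the plus strand. The Cox6a2 probe has no mapped position, and a second Cox6a2 probe that shares 53 bases with it without a mismatch lies at chr1:187464580-187464639 on the minus strand. AATAAA was present in 12 of the 37 probes used for members (32.4%) and in 9.04% of all 45598 probes.

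Cox6a2, the muscle form of subunit VIa, showed the largest difference of the members. Its log2 signal in the KO arrays ran from -3.32 to -1.10 with a median of -2.80, against -2.29, 0.25, -0.59, 0.20 and -0.06 in WT 3, 5, 6, 7 and 8. All KO arrays lay below WT 5 to WT 8, and WT 3 fell inside the KO range. The group means were -2.34 ± 0.95 (SD, n = 7) and -0.50 ± 1.06 (SD, n = 5), a difference of -1.84 ± 0.51 (SE) or 3.57-fold, with an unadjusted p of 0.00317 and an adjusted p of 0.100 in limma. By fold change, 7 of the 14746 features lay lower. Far more features than these, of either sign, had a smaller p than Cox6a2. A ranking by fold change takes no account of spread. The SD of Cox6a2 was the largest of the complex IV and ATP synthase members in both groups, 0.95 in KO and 1.06 in WT.

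Cox6a2 also followed the sample numbers. KO 1 to KO 4 averaged -3.06 ± 0.25 (SD, n = 4) and KO 5 to KO 7 averaged -1.37 ± 0.40 (SD, n = 3), and WT 3 was at -2.29 while WT 5 to WT 8 averaged -0.05 ± 0.38 (SD, n = 4). With the number range (1 to 4 or 5 to 8) as a block in the fit, the difference was -1.14 ± 0.21 (SE), 2.21-fold, at an adjusted p of 0.0110 in limma, where 2.05% of all features were called lower. Cox6a2 passed there, and it passed within the arrays numbered 5 to 8 alone, at -1.32 and an adjusted p of 0.0341 (2.36% of all features called lower). The split into number ranges was taken from earlier results of these same data, so these fits are not an independent check. In the fit without it Cox6a2 was not called. In the arrays numbered 1 to 4, where WT 3 is the sole wild type, the Cox6a2 difference was -0.77. Without WT 3 the difference over the remaining arrays became -2.29, at an adjusted p of 0.0188 (1.81% of all features called lower). KO 1 to KO 4 then have no wild type of their number range, so this value also holds the difference between number ranges.

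By slide, the Cox6a2 difference was 0.04 on slide 1, which holds WT 3 and WT 8, -3.36 on slide 2 and -2.18 on slide 3. On slide 2 limma gave an adjusted p of 0.00906, and 6.26% of all features were called lower there. That slide sets KO 1 to KO 3 against WT 5 alone, so genotype and number range cannot be told apart on it. With the slide as a block the difference was -1.69, at an adjusted p of 0.123. The second Cox6a2 probe, above background on 11 arrays, gave -1.76.

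Cox6a1, the ubiquitous form of the same subunit, was nearly level. Its log2 signal in the KO arrays ran from 6.45 to 6.63 with a median of 6.56, and in the WT arrays it was 6.84, 6.51, 6.48, 6.69 and 6.45, in the order of their numbers. WT 3 and WT 7 lay above every KO array, WT 8 just below them all, and WT 5 and WT 6 among them. The difference was -0.04 ± 0.11 (SE), at an adjusted p of 0.901 in limma. After quantile normalization it was -0.24, and in the deposited value table -0.27, with adjusted p of 0.319 and 0.257 in limma. Cox6a1 had the smallest SD over the KO arrays of all complex IV and ATP synthase members, 0.06, where Cox6a2 had the largest, 0.95.

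The Cox6a2 value minus the Cox6a1 value, taken array by array, has no array scaling in it. It ran from -9.88 to -7.70 with a median of -9.31 in the KO arrays and was -9.13, -6.27, -7.07, -6.49 and -6.51 in WT 3, 5, 6, 7 and 8. Again WT 3 alone fell among the KO values. The KO minus WT difference of this quantity was -1.80, with p = 0.0240 in a two-sided exact permutation test (792 ways to split the arrays into 7 and 5) and 0.168 after adjustment over the 7 pairs computed, where the smallest p possible is 0.00126. With the number range as a block the difference was -1.07 (exact p = 0.00571), and within numbers 5 to 8 it was -1.34 (exact p = 0.0286). These designs allow fewer splits, and each of these p-values is the smallest its design can give.

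**Figure D2:**
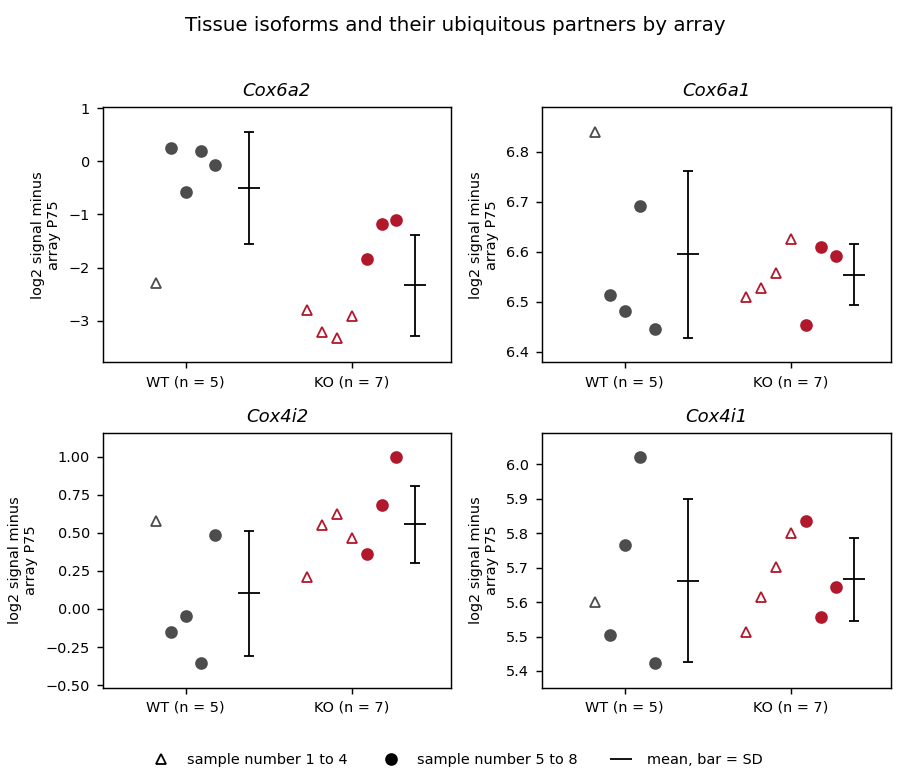
Log2 signal relative to the array's 75th percentile (y axis, own scale in each panel) of Cox6a2, Cox6a1, Cox4i2 and Cox4i1 in 5 WT and 7 KO arrays; open triangles are sample numbers 1 to 4, filled circles 5 to 8, and the bar beside each group is the mean with its SD. The Cox6a2 values of WT 5 to WT 8 lie above all KO values, which begin at -1.10 and go down, while WT 3 lies at -2.29.

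Cox4i2 and Cox4i1, the alternative forms of subunit IV, gave a smaller difference of the other sign. Cox4i2 ran from 0.21 to 1.00 with a median of 0.55 in the KO arrays, and was 0.58, -0.15, -0.05, -0.36 and 0.48 in WT 3, 5, 6, 7 and 8. WT 3 and WT 8 lay inside the KO range and the other 3 below it. The difference was 0.45 ± 0.19 (SE), 1.37-fold, at an unadjusted p of 0.0320 and an adjusted p of 0.268 in limma. Cox4i1 ran from 5.51 to 5.84 with a median of 5.64 in the KO arrays, and was 5.60, 5.50, 5.77, 6.02 and 5.42 in the WT arrays, which lay on both sides of the KO values. Its difference was 0.0038 ± 0.13 (SE). Cox4i2 minus Cox4i1 was 0.45 higher in KO (exact permutation p = 0.106, adjusted over the 7 pairs 0.371). With the slide as a block it was 0.47 at an exact p of 0.00694, the smallest that design can give. In the deposited value table it was 0.63 at 0.0366. With the number range as a block it was 0.42 (exact p = 0.189), and within numbers 5 to 8 it was 0.70 (exact p = 0.143).

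Cox6b2, the testis form of subunit VIb, was well above background on 12 arrays and differed by 0.34 ± 0.16 (SE), at an adjusted p of 0.328 in limma. Cox7b2, Cox8b and Cox8c stayed between -7.86 and -5.22 in log2 signal on every array, not well above background, so that no fold is given for them, and their pairs with Cox7b and Cox8a carry no isoform value. Muscle transcripts were looked at beside these forms. Of 13 striated muscle genes on the array, Cox8b among them, 7 were above background on 0 arrays, including Ckm, Myh7, Myh2, Myh1, Tnnt3 and Myod1. The 4 that were tested differed by -0.04 (Mb, above background on 12 arrays), -0.07 (Tnni2, on 9), -0.66 (Des, on 7) and 0.75 (Tnnt1, on 5), with adjusted p of 0.949, 0.928, 0.303 and 0.430 in limma. Log2 of the summed signal of the list lay between -1.12 and -0.39 in the KO arrays and between -0.85 and -0.47 in the WT arrays, and its part in the Cox6a2 result was not tested.

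The 10 ubiquitous complex IV subunits included the 3 others with an unadjusted p under 0.05. Cox8a, the small subunit VIII, ran from 5.0 to 5.52 with a median of 5.36 in the KO arrays, and was 4.92, 5.0, 4.51, 4.99 and 5.05 in the WT arrays. Only KO 4, at 5.0, lay within the WT range. The difference was 0.43 ± 0.14 (SE), 1.34-fold, at an unadjusted p of 0.00813 and an adjusted p of 0.150 in limma. It was positive in all 30 alternatives run, between 0.22 and 0.53, and was called in 0 of them.

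Cox5a, a subunit on the matrix side, ran from 3.93 to 4.33 with a median of 4.06 in the KO arrays, and was 3.72, 3.52, 3.94, 3.72 and 3.73 in the WT arrays. WT 6 alone reached the KO values. The difference was 0.35 ± 0.12 (SE), at an adjusted p of 0.183 in limma, and a second Cox5a probe gave 0.45. Cox5b, its zinc-binding neighbour in the matrix, ran from 4.17 to 4.78 with a median of 4.62, against 4.36, 4.33, 4.21, 4.10 and 4.10 in the WT arrays. KO 4, at 4.17, fell inside the WT range and the other 6 KO arrays lay above it. Its difference was 0.31 ± 0.13 (SE), at an adjusted p of 0.261.

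Ndufa4, first counted with complex I and since placed in complex IV, had the widest spread over the KO arrays among the ubiquitous subunits, with an SD of 0.47. It ran from 3.83 to 5.12 with a median of 4.28 in the KO arrays, and was 4.03, 3.87, 4.12, 4.42 and 3.67 in the WT arrays. KO 5 to KO 7, at 5.12, 4.50 and 4.62, lay above every WT array, and KO 1 to KO 4 lay among them. The difference was 0.28 ± 0.23 (SE), at an adjusted p of 0.582 in limma.

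The other ubiquitous subunits lay between -0.13 and 0.20. Cox6c was at -0.13 ± 0.13 (SE), Cox7a2 at 0.17 ± 0.12, Cox7b at 0.16 ± 0.19 and Cox7c at 0.20 ± 0.23. For Cox7c a second probe gave the opposite sign, -0.54 ± 0.32 (SE). It was the sole such case: 12 members had more than 1 probe past the filter, and in 11 of them all probes had the same sign. Several of these probes overlap, by 59 bases in Usmg5, 53 in Cox6a2 and 46 in Atp5g2 and Atp5l, so their signs are not independent. The Cox7c probes, which start at bases 319 and 647, do not overlap. Cox7a2l, a factor that joins complex IV to complex III in supercomplexes, differed by 0.21 ± 0.16 (SE).

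Cox6c shows how close such probes can be. Its 2 probes overlap by 44 bases with 2 mismatches, in capitals, and gave -0.13 (the probe used, at base 269) and -0.08 (at base 253).
Cox6c, probe at base 269: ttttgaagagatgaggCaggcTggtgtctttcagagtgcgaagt
Cox6c, probe at base 253: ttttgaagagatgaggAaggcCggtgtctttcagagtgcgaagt
The pseudogene Cox6c-ps1, whose transcript could share sequence with Cox6c, differed by 0.21 ± 0.17 (SE). Signal from near-identical copies cannot be separated on these probes.

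Across complex IV, 11 of the 14 members tested had a positive fold change and the median was 0.21. Among all features 55.3% were positive and the median was 0.04. By role the median was 0.19 in the ubiquitous subunits and 0.34 in the 3 tissue forms tested. The median depended on the scaling. It was 0.08, with 9 of 14 positive, after quantile normalization and 0.10, with 10 of 14, in the deposited value table. The medians of all features were 0.0044 and 0.0032 there. That table also has the look of quantile normalization, so these settings are alike. With array median scaling the complex IV median was 0.16, with 10 of 14 positive, beside -0.0046 and 49.4% for all features. After normexp background correction it was 0.22, with 12 of 14, beside -0.036 and 42.6%. In the arrays numbered 1 to 4 the complex IV median was 0.0030, with 7 of 14 positive, and in those numbered 5 to 8 it was 0.25, with 12 of 14. Of all features, 50.7% were positive after quantile normalization and 50.4% in the deposited value table. The shares were 49.3% in numbers 1 to 4 and 58.5% in numbers 5 to 8.

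In the ATP synthase, the F1 head holds the catalytic beta subunit (Atp5b), its partner alpha (Atp5a1) and the central stalk subunits gamma, delta and epsilon (Atp5c1, Atp5d, Atp5e). All 5 were positive, from 0.05 for Atp5d to 0.35 for Atp5b. Atp5b ran from 2.44 to 2.83 with a median of 2.73 in the KO arrays, and was 2.04, 2.52, 2.45, 2.28 and 2.24 in the WT arrays. KO 3, at 2.44, lay below WT 5 and WT 6, and the other 6 KO arrays lay above every WT array. The difference was 0.35 ± 0.13 (SE), 1.28-fold, with an unadjusted p of 0.0158 and an adjusted p of 0.198 in limma. Atp5a1 was at 0.18 ± 0.12 (SE), Atp5c1 at 0.12 ± 0.14 and Atp5e at 0.24 ± 0.14.

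The peripheral stalk, which holds the head still against the turning ring, gave 4 small positive differences: Atp5o at 0.20 ± 0.11 (SE), Atp5f1 at 0.13 ± 0.11, Atp5h at 0.13 ± 0.13 and Atp5j at 0.08 ± 0.14. Among all complex IV and ATP synthase members, Atp5o had the smallest SD over the WT arrays, 0.09.

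The c subunit of the ring is encoded by 3 genes, Atp5g1, Atp5g2 and Atp5g3, whose mature proteins are alike and whose import sequences differ. Atp5g1 ran from 4.55 to 5.56 with a median of 4.69 in the KO arrays and was 4.82, 4.67, 5.0, 5.40 and 4.91 in the WT arrays, for a difference of -0.02 ± 0.21 (SE). Atp5g2 ran from 5.25 to 5.96 with a median of 5.72, against 5.80, 5.37, 5.05, 5.38 and 5.32, a difference of 0.29 ± 0.17 (SE). Atp5g3 ran from -0.53 to 1.5 with a median of 1.01, against 0.19, 0.61, 1.25, -0.30 and 0.79, a difference of 0.36 ± 0.34 (SE). In all 3 the groups overlapped over most of their range. Atp5g1 and Atp5g3, but not Atp5g2, split by sample number within the knockout, as 37.1% of all features did. Atp5g1 was at 4.62 ± 0.06 (SD, n = 4) in KO 1 to KO 4 and at 5.38 ± 0.16 (SD, n = 3) in KO 5 to KO 7, a difference of -0.76, and for Atp5g3 that difference was 0.91. Atp5g1 minus Atp5g3 differed by -0.38 between KO and WT (exact permutation p = 0.494) and Atp5g2 minus Atp5g3 by -0.07 (exact p = 0.879), with the same 792 splits.

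The small membrane subunits gave differences of both signs. Usmg5, which helps hold the synthase in dimers, ran from 4.35 to 4.76 with a median of 4.62 in the KO arrays, and was 4.69, 4.14, 4.04, 3.88 and 4.13 in WT 3, 5, 6, 7 and 8. WT 3 lay among KO 1 to KO 4, and all 7 KO arrays lay above the other 4 WT arrays. The difference was 0.39 ± 0.15 (SE), 1.31-fold, at an unadjusted p of 0.0219 and an adjusted p of 0.227 in limma. All 4 of its probes were positive, at 0.36, 0.39, 0.44 and 0.64, where those at 0.39 and 0.64 share 59 bases. Without WT 3 it was 0.52, at an adjusted p of 0.0405 (2.6% of all features called higher), again with no wild type in the lower number range. With the number range as a block it was 0.24, at 0.230. Atp5j2 was at 0.37 ± 0.20 (SE), Atp5l at 0.08 ± 0.16 and Atp5i at -0.23 ± 0.17. With the number range as a block Atp5i was at -0.41 ± 0.11 (SE), with an adjusted p of 0.0545 in limma. In numbers 5 to 8 alone it was at -0.44, with an adjusted p of 0.134.

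Atpif1 encodes the factor that stops the synthase from running backwards and consuming ATP. It ran from 3.04 to 3.82 with a median of 3.60 in the KO arrays, and was 4.12, 3.41, 3.49, 3.12 and 3.36 in the WT arrays. WT 3 was above every KO array, KO 1 to KO 4 above WT 5 to WT 8, KO 5 among these 4, and KO 6 and KO 7 below them. The difference was -0.06 ± 0.20 (SE), at an adjusted p of 0.923 in limma, and with the number range as a block it was -0.30, at 0.149.

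**Figure D3:**
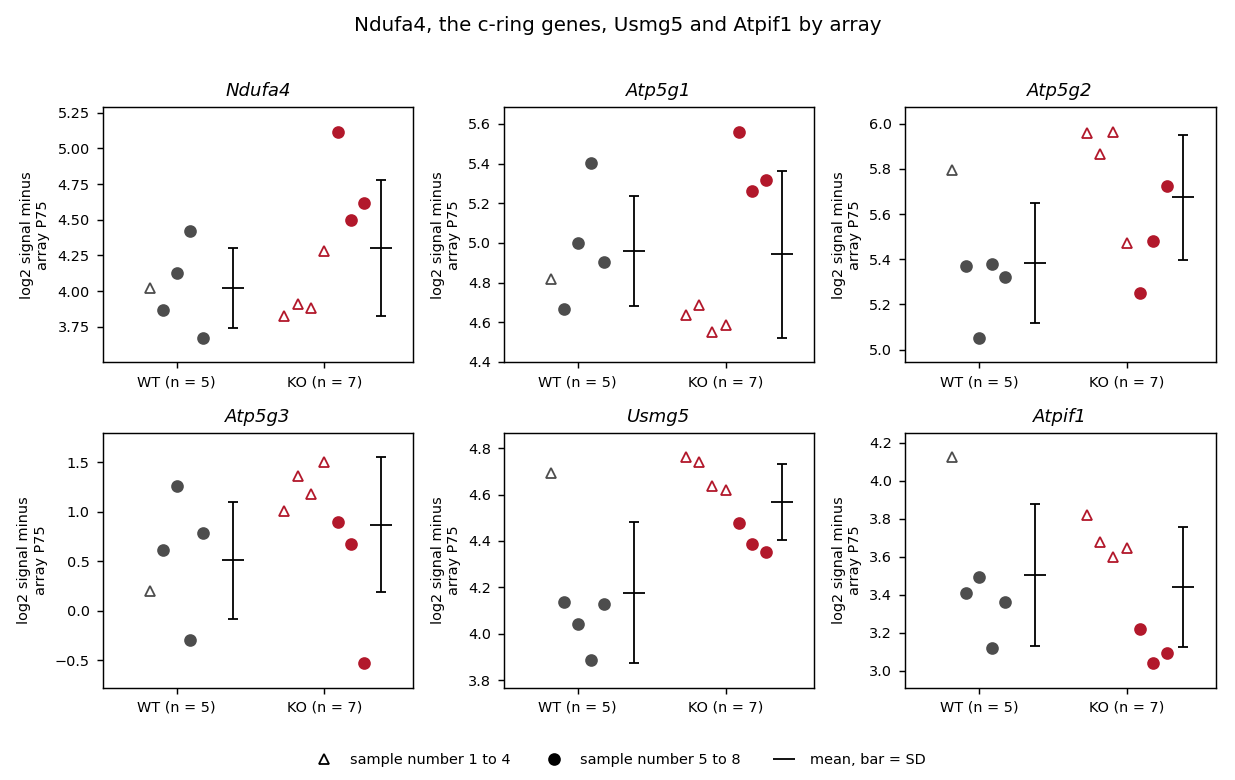
Log2 signal relative to the array's 75th percentile (y axis, own scale in each panel) of Ndufa4, Atp5g1, Atp5g2, Atp5g3, Usmg5 and Atpif1 in 5 WT and 7 KO arrays; open triangles are sample numbers 1 to 4, filled circles 5 to 8, and the bar beside each group is the mean with its SD. The triangles and circles of the KO arrays separate in 5 of the 6 panels; in Atp5g2 they overlap.

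Across the ATP synthase, 14 of 17 members had a positive fold change and the median was 0.13. It was 0.0067, with 9 of 17 positive, after quantile normalization and 0.011, with 9 of 17, in the deposited value table. With array median scaling it was 0.086, with 14 of 17, and after normexp background correction 0.15, with 16 of 17. In the arrays numbered 1 to 4 it was -0.0014, with 8 of 17 positive, and in those numbered 5 to 8 it was 0.21, with 13 of 17. The members counted apart were at -0.05 for Atp5s and 0.09 for Atp5sl, with adjusted p of 0.935 and 0.915 in limma.

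The same medians were read array by array. Each member's value was set against the mean of the WT arrays, which centres the WT values by construction, and the median over members was taken in each array. For the ATP synthase it lay between 0.14 and 0.23 in the KO arrays and between -0.07 and 0.09 in the WT arrays. For complex IV it lay between 0.09 and 0.31 and between -0.10 and 0.09, so that KO 1 and KO 3, both at 0.09, fell inside the WT range. The SD of a member over arrays was 0.20 at the median of members in KO and 0.24 in WT.

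**Figure D4:**
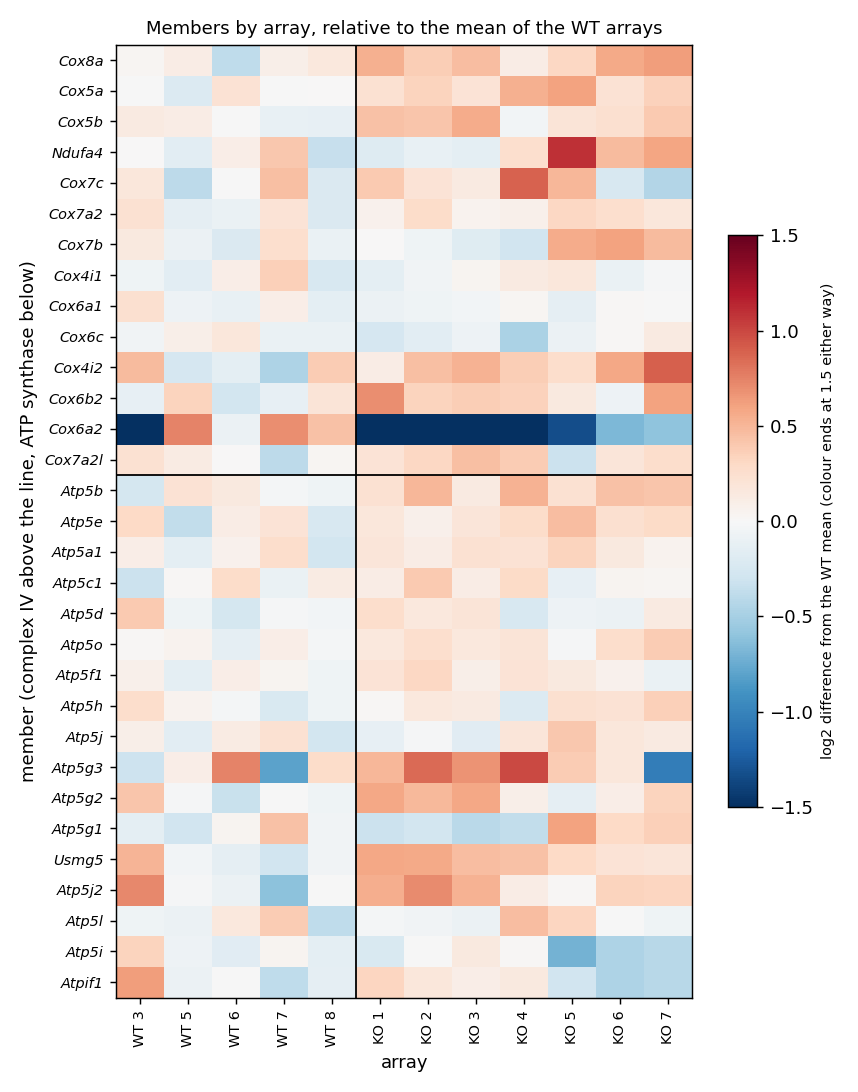
Difference of each member (row, complex IV above the horizontal line and ATP synthase below) from its mean over the WT arrays, in log2 units, by array (column, WT left and KO right of the vertical line); colour ends at 1.5 either way. Cox6a2 is the row that leaves this range, in WT 3 and KO 1 to KO 4, and the rest of the KO side is mostly pale red.

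Within the knockout, 3 of the 14 complex IV members and 7 of the 17 ATP synthase members had values in KO 1 to KO 4 that did not overlap those of KO 5 to KO 7, which is 21.4% and 41.2% beside 37.1% of all features. Cox7b, Ndufa4 and Cox6a2 were different by -0.67, -0.77 and -1.69 (KO 1 to KO 4 minus KO 5 to KO 7). In the ATP synthase Atp5h and Atp5g1 differed by -0.25 and -0.76, and Atp5c1, Atp5g3, Atp5i, Usmg5 and Atpif1 by 0.25, 0.91, 0.51, 0.28 and 0.57. These are descriptions of 7 arrays with no test.

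Genes that work with these subunits were read from lists in the same fit. Of the factors that assemble complex IV or support its translation, 24 of 31 were on the array, 20 were tested and 0 were called, with 3 higher and 1 lower at an unadjusted p under 0.05. The shares of all features were 0.698% and 0.393% called and 9.35% and 6.24% at the unadjusted p, and they apply to the next list too. Higd2a, an assembly factor of complex IV, differed by 0.50 ± 0.15 (SE), at an adjusted p of 0.121 in limma, and Cox15, which makes the heme A of complex IV, by 0.31 ± 0.13 (SE), at 0.261. Of 9 assembly factors and partners of the ATP synthase tested, 0 were called and 2 were higher at an unadjusted p under 0.05: Slc25a5, an ADP/ATP carrier, at 0.37 ± 0.14 (SE), and Atpaf2, which assembles the F1 head, at 0.27 ± 0.11 (SE), with adjusted p of 0.226 and 0.269. Cycs, the electron donor of complex IV, was at -0.01 ± 0.18 (SE) and Hccs, which attaches its heme, at -0.08 ± 0.16 (SE).

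Of 10 genes tested that respond to low oxygen or take part in the Cox4 isoform switch, 1 was called, where 0.698% of all features were called higher. Bnip3, a mitophagy receptor and target of hypoxia-inducible factors, was higher by 1.24 ± 0.17 (SE), at an adjusted p of 0.00697 in limma. The list count fell to 0 in 6 of the 30 alternatives: array median scaling, no filter on dim probes, slide 1 alone, slide 3 alone, the replicate block and numbers 1 to 4 alone. It rose above 1 in 3, within slide 2, in numbers 5 to 8 and without WT 3, where it was 4, 3 and 2. Pdk1, which holds back pyruvate dehydrogenase, was at 0.79 ± 0.25 (SE) with an adjusted p of 0.145, and Chchd2, which can activate Cox4i2, at 0.38 ± 0.14 (SE) with 0.203. Egln3, an oxygen-sensing prolyl hydroxylase that is itself a target of hypoxia-inducible factors, was at -0.34 ± 0.21 (SE) with 0.448. Of 8 regulators of respiratory gene transcription tested, 0 were called and 0 had an unadjusted p under 0.05 in limma. The smallest p-values belonged to Nrf1, at -0.40 ± 0.21 (SE) with an adjusted p of 0.370, and Tfam, at 0.27 ± 0.18 (SE) with 0.486.

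Promoter sequence played no part in the choice of members. RefSeq promoter windows of GRCr8, from 250 bases before to 50 after the gene start, were found for 30 of the 34 complex IV and ATP synthase members, and each motif was searched as written on both strands, overlaps allowed. GCGCANGCG, a core of the NRF1 motif, was in 1 of 14 complex IV windows (Cox7a2l) and 6 of 16 ATP synthase windows (Atp5c1, Atp5o, Atp5g2, Atp5g3, Atp5i and Atp5l), against 6.26% of all 27457 windows. With a further C at its 3′ end, it was in 0 of 14 and 5 of 16, against 4.71%. CCGGAAG, an ETS motif that GABP binds, was in 4 of 14 and 5 of 16, against 9.22%. AANATGGC, a core of the YY1 motif, was in 3 of 14 and 6 of 16, against 7.36%. CTAAAAATA, a MEF2 motif known from muscle genes, was in 1 of the 30 windows, that of Cox6a2, and in 0.517% of all. TCAAGGTCA, the ERR alpha motif, was in 1, that of Atp5g3, and ACGTG, the core of the hypoxia response element, in 10 of 30 against 19.7% of all. A match is a description of letters, not of binding.

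The upstream 250 bases of Cox6a2 and of Cox8a, the members with the largest negative difference and the smallest p among positive ones, are shown 5′ to 3′ along the gene. Capitals mark CTAAAAATA in Cox6a2, and ACGTG and CTTCCGG, the reverse complement of CCGGAAG, in Cox8a.
Cox6a2, chr1:192219717-192219966, minus strand, GRCr8: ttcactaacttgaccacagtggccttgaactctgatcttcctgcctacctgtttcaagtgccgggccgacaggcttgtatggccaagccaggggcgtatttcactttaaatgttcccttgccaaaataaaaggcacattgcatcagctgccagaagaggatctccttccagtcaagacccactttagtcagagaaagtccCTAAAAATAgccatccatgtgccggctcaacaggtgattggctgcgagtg
Cox8a, chr1:213833624-213833873, minus strand, GRCr8: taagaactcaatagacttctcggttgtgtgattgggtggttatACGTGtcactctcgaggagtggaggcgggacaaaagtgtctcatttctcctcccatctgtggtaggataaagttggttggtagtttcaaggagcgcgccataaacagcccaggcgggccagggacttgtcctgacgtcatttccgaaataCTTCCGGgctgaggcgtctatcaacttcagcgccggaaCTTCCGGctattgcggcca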

How the data were processed

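Per the labels' protocols, RNA came from a Trizol extraction and carried the Cy3 dye. The authors deposited scanner output, in which each spot has a linear intensity. The image software was Agilent Feature Extraction, 10.7 per the submitters' processing notes and 10.1.1.1 per the file headers, which also give build rn4. The value table deposited by the authors is in log2 units, with the look of quantile normalization, which the sample titles abbreviate. Its Spearman correlation with the same array's scanner signal was 0.998, and it served as an alternative.

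Control spots were left out, as were spots with an uneven or population outlier mark. The log2 processed signals of spots with the same probe were averaged, the array's 75th percentile over all spots that are not controls was subtracted, and the probe with the highest mean over the 12 arrays stood for a gene name. Testing was limited to the 14746 features whose probe passed the scanner's background flag on 5 or more arrays. The filter and the choice of probe can change which value stands for a gene, and scaling by a percentile moves all members of an array together. No spot was saturated, 42.3% to 53.8% of spots were well above background, and the number of arrays limits the precision.

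The genotypes were compared in R 4.3.3 with limma 3.58.1 (two-sided, no covariate, Benjamini-Hochberg over all features), and isoform pairs with an exact permutation test. The limma and permutation scripts were tested on simulated data. Groups and sample numbers came from the sample titles. The 12 arrays lay on 3 slides scanned on 2 days, and each slide held both genotypes. Same-numbered KO and WT arrays correlated in their deviations from the group means by 0.461, -0.109, 0.0734 and 0.0497 for numbers 3, 5, 6 and 7, so the numbers were not taken as pairs.

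Every member is named. WT values by array are given for Vdac1, for the genes of isoform pairs whose tissue form is above background, and for Ndufa4, Atpif1 and Usmg5. The same holds for members with an unadjusted p under 0.05. KO values of these genes are given as a range and a median, and for Vdac1 also by array. From each list the called genes or those with the smallest p are named. The members, lists, roles and alternatives were chosen with earlier results of these data known, and the promoter motifs and promoters shown, and genes cited as background markers, were chosen after values had been seen. The split of sample numbers into 1 to 4 and 5 to 8 also comes from those earlier results. Alternatives covered background correction, scaling, filter, probe choice, slide, scan day, sample numbers and each array left out. Protein sequences were not used here.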

Additional observations from a re-analysis of the deposited data

Results flagged for a closer look

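Of 78 groups of values checked (KO and WT for each of 34 members, Vdac1 and 4 isoform pairs), 7 held an array whose gap to its nearest neighbour was large for the range of its group, and chance marks about 1 in 20 groups. Cox8a in WT 6 was at 4.51, with the next WT array at 4.92. Cox7a2l in KO 5 was at 3.46, the next KO array at 3.97. Atp5g3 in KO 7 was at -0.53, with 0.68 next to it, and the same array gave 6.26 for Atp5g2 minus Atp5g3, with 4.95 next. Cox6c-ps1 in WT 7 was at 0.84, with 1.61 next. In WT 3 the difference Cox6a2 minus Cox6a1 was -9.13, with -7.07 in the nearest WT array, and Vdac1 was at 3.61, with 3.16 next. Without WT 3 the KO minus WT difference of Cox6a2 minus Cox6a1 was -2.31 in place of -1.80. What sets these arrays apart was not tested.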

How the results depend on the processing

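In 30 alternatives, no complex IV member was called higher and no ATP synthase member lower in limma. The complex IV count of lower members went from 0 to 1, Cox6a2, within slide 2, with the number range blocked and in numbers 5 to 8 alone, and leaving out each array in turn gave 0 to 1 (1 without WT 3, as for ATP synthase higher, where the range was 0 to 1 and the gene Usmg5). The complex IV median of 0.21 became 0.0782 with quantile normalization, 0.10 in the deposited value table and 0.0030 in numbers 1 to 4 alone, and lay between 0.15 and 0.26 with an array left out. The ATP synthase median of 0.13 became 0.0067, 0.011 and -0.0014 in the same 3, 0.28 within slide 2 and 0.21 in numbers 5 to 8, and 0.12 to 0.20 with an array left out (0.20 without WT 3).

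Cox6a2 minus Cox6a1 changed sign only within slide 1, at 0.0797, and was -3.38 within slide 2 and -0.49 in numbers 1 to 4 alone. In all 25 alternatives that could reach an exact p under 0.05 it did so unadjusted, from 0.00571 to 0.0455. These are not independent checks. Array median scaling, the percentile over distinct probes and the filter settings cannot change this difference, and each gave -1.80 again. Keeping flagged spots also gave -1.80. The fits with an array left out share nearly all arrays, and gave -2.31 to -1.59. Cox4i2 minus Cox4i1 passed unadjusted with quantile normalization (0.62), in the deposited value table (0.63), with the slide as a block (0.47) and without WT 8 (0.61), was -0.17 in numbers 1 to 4 alone, and ran from 0.25 to 0.61 with an array left out. Atp5g1 minus Atp5g3 was 0.84 within slide 1, 0.0232 with the number range as a block and 0.63 in numbers 5 to 8, with -0.67 to -0.06 for an array left out. Atp5g2 minus Atp5g3 was 0.45 in numbers 5 to 8, -1.05 in numbers 1 to 4, and -0.34 to 0.13 with an array left out. The causes were not tested.

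With the replicate block over the 4 shared numbers (8 arrays), 0 members were called, the complex IV median was 0.23, the ATP synthase median 0.12 and Cox6a2 minus Cox6a1 -1.17; the pairing is by number alone, and its smallest exact p is above 0.05. Fits within slide 2 and in numbers 1 to 4 hold 1 wild-type array, assumed to vary like the knockout. On slide 2 and without WT 3, genotype is also mixed with number range. The 75th percentile over distinct probes, chosen after seeing the data, moved no call among the members. Dim probes limit the Cox6a2 value, which was -1.21 after normexp background correction.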
